A study of Sus scrofa with 12 samples.

Results

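The 6 genes *PMP22*, *MBP*, *PMP2*, *PRX*, *S100B* and *SOX10* were studied as genes of Schwann cells and their myelin. The set was meant as a measure of the nerve held in a piece of muscle, and the source of the RNA was not tested. The 6 genes were chosen by name, and each was matched by its symbol to the annotation of the pig genome build Sscrofa11.1. They are 6 of the 13138 annotated genes with an assembled transcript in at least 1 library. All samples were *Longissimus dorsi* muscle, the long back muscle that gives the loin, from castrated male Iberian pigs of 1 purebred line fattened outdoors on acorns and grass. The Tough group (6 animals) and the Tender group (6 animals) were chosen for opposite breeding values for shear force, the force needed to cut the meat. The paper's Tender group held 1 more animal, whose library belongs to another series and was not used here. Shear force lay between 7.32 and 10.63 kg/cm2 in Tough animals, against 2.18 to 3.43 kg/cm2 in Tender animals. Each animal gave 1 RNA library, so the replicates are animals. The groups differ in no agent or allele that the labels name. The paper reports that the muscle of Tough animals held less intramuscular fat than that of Tender animals.

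Schwann cells wrap the axons of peripheral nerves, and the myelinating ones lay down a compact sheath of membrane and a few abundant proteins. SOX10 is the transcription factor that gives and keeps Schwann cell identity, and together with EGR2 it switches on the myelin genes. PMP22 is a membrane protein of compact peripheral myelin whose dose is critical in inherited neuropathies, MBP binds the inner faces of the membrane together, and PMP2 is a fatty acid binding protein of the same compact myelin. Periaxin, the product of *PRX*, links the outer Schwann cell membrane to the basal lamina, and S100B is a calcium binding protein widely used to stain Schwann cells. In skeletal muscle these cells lie in the nerve branches and at the ends of motor axons, and they make up a small part of the tissue.

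No difference between the Tough and Tender groups was found in any of the 6 genes, which does not show that the groups were equal. *PMP22* had the highest level, at 4.84 ± 0.989 FPKM over all libraries (SD, n = 12), where FPKM is the count of sequenced fragments scaled to transcript length and to the mapped fragments of the library, so a level per length. *MBP* followed at 1.68 ± 0.632 FPKM, *S100B* at 1.42 ± 0.421 FPKM and *PRX* at 0.538 ± 0.117 FPKM. *PMP2* was listed in 10 libraries and *SOX10* in 4. Of the 4 members whose mean passed 0.5 FPKM and could enter the test over all genes (limma on log2(FPKM + 0.5)), 0 had an unadjusted p of at most 0.05, against 2.46% of all 9148 genes tested (225 genes). None of the 9148 genes was called at an adjusted p of at most 0.10 with a fold change of 1.5 (0% called, limma with Benjamini-Hochberg adjustment). The paper did report genes that differed, at like thresholds but with another test, Cuffdiff, on read alignments and with a further Tender animal. Of the 225 genes, 65 had the higher level in Tough and 160 in Tender. The split was 137 and 143 of 280 genes after median-of-ratios scaling and 146 and 149 of 295 genes after quantile normalization. Without the library Tender 4 the division was 242 higher in Tough and 163 in Tender, of 405 genes. In bulk tissue, the number of Schwann cells, the RNA per Schwann cell and RNA from other cells cannot be told apart.

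**Figure D1:**
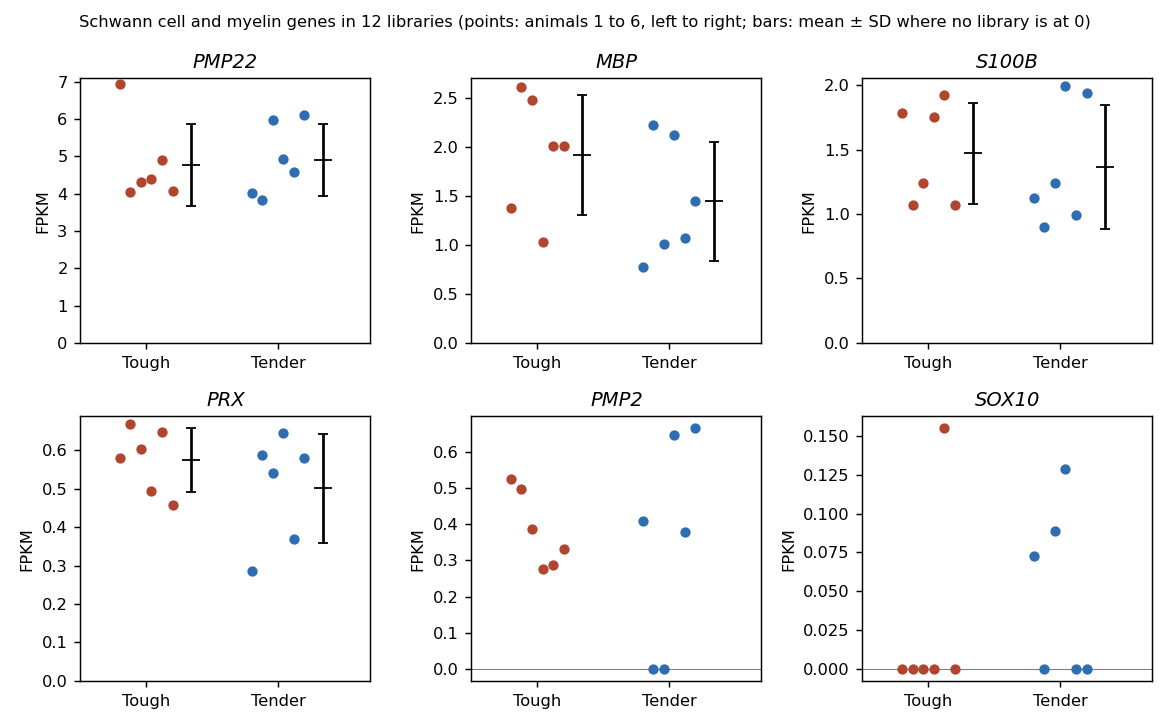
Level of each of the 6 genes in FPKM (y axis), with Tough libraries left and Tender libraries right in each panel. Points are animals 1 to 6, and bars give the mean and SD where no library is at 0. The 2 groups overlap in every panel, and *SOX10* stands above 0 in 4 libraries only.

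The order of the levels was clear at the top and loose below it. *PMP22* exceeded *MBP* in 12 of 12 libraries, with a ratio of means of 2.89, and *S100B* exceeded *PRX* in 12 of 12, with a ratio of 2.63. *MBP* and *S100B* did not separate at the gene level, since *MBP* was the higher of the pair in 7 of 12 libraries. That pair depends on the scaling to the annotated exons. Before this scaling, the *S100B* transcript ranged from 1.45 to 3.22 FPKM over the 12 libraries. The *MBP* transcripts that end in the annotated last exon ranged from 0.625 to 2.02 FPKM. *PRX* exceeded *PMP2* in 8 of 12 libraries. By mean level, *PMP22* stood above 72.1% of the 13138 genes with a transcript, *MBP* above 51.5%, *S100B* above 48.2%, *PRX* above 31.5%, *PMP2* above 26.1% and *SOX10* above 8.14%. The files hold no read counts, and counting error is known only through Cufflinks' confidence limits on each transcript, for example 2.51 to 3.36 FPKM around 2.93 FPKM for the *S100B* transcript of Tough 1 and 0.0799 to 0.371 FPKM around 0.225 FPKM for the *SOX10* fragment of Tender 1. Cufflinks' mean read coverage over the exons of a member ranged from 29.8 to 55.2 reads per base for *PMP22* and from 0.599 to 1.28 reads per base for *SOX10* where it was listed, so statements on *SOX10* rest on very few reads.

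*PMP22* lies on the minus strand at chr12:58679773-58734195. Its level was 4.05 FPKM in the lowest, 4.36 FPKM at the median and 6.93 FPKM in the highest of the 6 Tough libraries, and 3.83, 4.76 and 6.11 FPKM at the same points of the 6 Tender libraries. Tough 1 stood above all other libraries, and the rest of the Tough group lay inside the Tender range. The means were 4.78 ± 1.10 FPKM in Tough and 4.91 ± 0.966 FPKM in Tender libraries (SD, n = 6 each). The log2 difference, Tough over Tender, was -0.04 with a standard error of 0.16 (limma, adjusted p = 1.00; exact two-sided permutation p = 0.835). The sign turned to 0.017 without Tender 3 and to 0.023 without Tender 6, and to 0.0031 with median-of-ratios scaling and 0.015 with quantile normalization.

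The gene has alternative first exons that carry no coding sequence and share the coding exons downstream. In rat and human the distal start is used mostly by myelinating Schwann cells and the proximal one by many tissues. In these libraries 26 transcripts of *PMP22* were assembled, and every library held both a form from the distal first exon (chr12:58707751-58707967) and a form from the proximal first exon (chr12:58705238-58706024), which are separated by 1726 bases. No assembled transcript began in an annotated exon that lies still further upstream (chr12:58734177-58734195). The 250 bases before the distal first exon are shown because in rat and human the distal start has the closest tie to myelin. Whether the pig exon called distal here is the counterpart of that start was not tested. The RefSeq genome sequence of Sscrofa11.1 (chr12:58707968-58708217, minus strand), with motif matches in capitals, is:
PMP22 distal start, upstream: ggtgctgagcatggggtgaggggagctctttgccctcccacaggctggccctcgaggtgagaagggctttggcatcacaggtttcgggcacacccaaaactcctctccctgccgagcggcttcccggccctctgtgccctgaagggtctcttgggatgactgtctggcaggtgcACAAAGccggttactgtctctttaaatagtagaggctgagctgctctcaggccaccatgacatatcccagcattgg
The motifs searched, on both strands, were TATAAA, a core promoter element, GGGCGG, the box bound by SP1, and ACAAAG and ACAATG, hexamers of the kind that SOX proteins bind. The match is ACAAAG on the gene's strand, 76 bases before the exon, a hexamer that 12.8% of 28247 stretches of 250 bases before annotated genes hold on either strand. TATAAA (in 11.2% of those stretches), GGGCGG (37.3%) and ACAATG (8.59%) are not in this window. Its GC content was 59.2%, against a median of 54.4% over those stretches.

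The distal form ranged from 2.55 to 4.21 FPKM in Tough libraries and from 1.23 to 3.84 FPKM in Tender libraries. The proximal form ranged from 2.59 to 5.97 FPKM in Tough libraries and from 3.37 to 5.76 FPKM in Tender libraries. The distal form exceeded the proximal form in 3 of 12 libraries, namely Tough 2, Tough 3 and Tender 5. Its share of the sum of both was 46.9 ± 8.20% in Tough libraries and 39.4 ± 10.4% in Tender libraries (SD, n = 6 each), a difference of 7.46 percentage points (exact permutation p = 0.216, adjusted p = 0.433 over 8 comparisons of forms chosen after the transcripts were seen). Tender 2 had the lowest share, 22.3%, and Tough 3 the highest, 58.0%. The levels of both forms are Cufflinks' estimates from reads that mostly fall on shared exons.

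**Figure D2:**
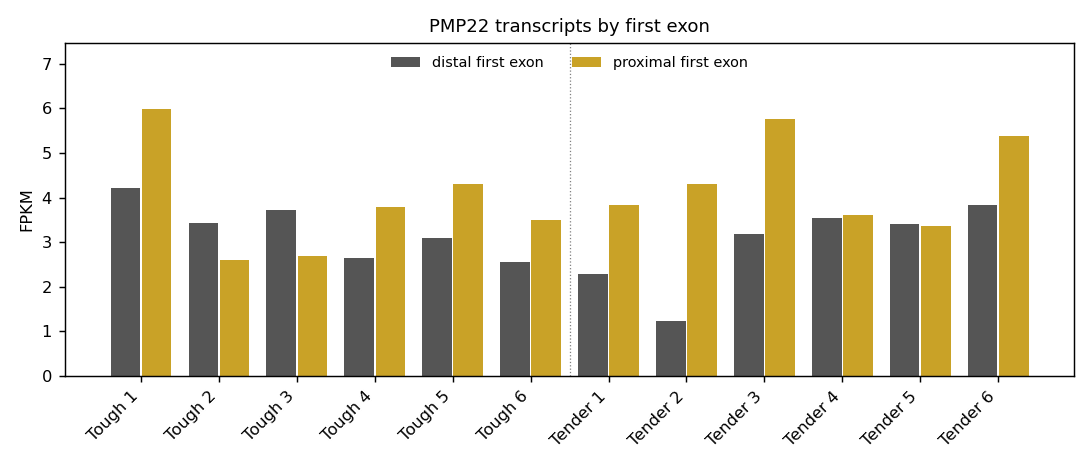
FPKM (y axis) of *PMP22* transcripts from the distal and the proximal first exon in each library, Tough 1 to 6 left of the dotted line and Tender 1 to 6 right of it. Every library has both forms, and Tender 2 has the least of the distal one, 1.23 FPKM.

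*MBP* lies on the plus strand at chr1:147649516-147685289. Its level was 1.03 FPKM in the lowest, 2.00 FPKM at the median and 2.60 FPKM in the highest Tough library, and 0.775, 1.26 and 2.23 FPKM at the same points of the Tender group. Tough 2, 3, 5 and 6 and Tender 2 and 4 were at or above 2.00 FPKM, and the ranges overlapped over most of their width. The means were 1.91 ± 0.614 FPKM for Tough and 1.44 ± 0.607 FPKM for Tender (SD, n = 6 each). This was the largest difference among the 4 members tested, with a log2 difference of 0.33 and a standard error of 0.23 (limma, adjusted p = 1.00; exact permutation p = 0.190).

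All 24 assembled *MBP* transcripts, 2 in each of the 12 libraries, began 80857 to 81157 bases before the annotated start of the gene. They had 3 exons there, of which the second (chr1:147590865-147590940) and the third (chr1:147617447-147617534) were identical in all 24, and no annotated gene overlaps this stretch. No transcript began at the annotated start. A transcript from that start would have its first exon inside an exon of these longer transcripts, so the assembler could have merged the 2 kinds. In mouse, the *Mbp* locus has an upstream start whose longer products, the golli proteins, were described in immune cells and neurons, whereas classic MBP of myelin is made from the downstream start. The bases of the upstream exons that carry a reading frame are shown because the annotation lacks them. Capitals mark the first ATG of that frame in the second upstream exon and the annotated start codon at the end of the stretch, and the exon between them holds neither (RefSeq genome, Sscrofa11.1, plus strand):
second upstream exon from its ATG, chr1:147590890-147590940: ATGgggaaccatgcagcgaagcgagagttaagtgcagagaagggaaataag
next upstream exon, chr1:147617447-147617534: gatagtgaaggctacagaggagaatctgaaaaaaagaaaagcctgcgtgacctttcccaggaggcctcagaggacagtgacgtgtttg
end of the stretch, chr1:147649525-147649557: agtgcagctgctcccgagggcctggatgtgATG
Read from the first ATG, the frame ran through 399 bases (133 codons) with no stop to the annotated start codon at base 147649555 and was in frame with it.

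The transcripts were of 2 kinds. The long form had 8 or 9 exons and ended in the annotated last exon, and it is the one that gives the gene's level. The short form had 4 exons, ran on past the annotated first exon without reaching the next one, and held too few bases in the annotated gene to be counted. Its last exon ended 0.43 kb after the annotated start in Tender 3, against 4.144 to 4.236 kb in the other libraries. The long form ranged from 0.824 to 2.02 FPKM in Tough libraries and from 0.625 to 1.600 FPKM in Tender libraries. The short form ranged from 1.12 to 2.12 FPKM in Tough libraries and from 0.457 to 2.31 FPKM in Tender libraries, and it exceeded the long form in 10 of 12 libraries. Its share of both was 55.7 ± 4.66% in Tough libraries and 51.1 ± 10.3% in Tender libraries (SD, n = 6 each; exact permutation p = 0.348, adjusted p = 0.465 over the 8 comparisons of forms). Tender 3, where the short form was cut short, had its lowest level, 0.457 FPKM, and its lowest share, 36.0%. Both forms were high in the same libraries (r = 0.85, rho = 0.79 over 12 libraries, permutation p = 0.00028, adjusted p = 0.00168 over 6 relations chosen after the forms were seen). The correlation was 0.84 without Tough 2 and Tender 1, the 2 libraries farthest from the median of the long form.

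A small coding exon of *MBP* set 2 libraries apart. The long form of 10 libraries held the annotated exon of 33 bases, and that of Tender 1 and Tender 2 skipped it. The exon is shown in capitals with 15 bases of intron on each side, which hold the ag and gt of its splice sites (chr1:147674435-147674497, plus strand):
MBP exon of 33 bases with flanks: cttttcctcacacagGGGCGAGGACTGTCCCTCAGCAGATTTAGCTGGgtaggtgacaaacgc
The assembler reports the form it finds best supported, so its absence from 2 assemblies does not show that no read crossed it.

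*PMP2* lies on the plus strand at chr4:55116259-55141619, beside other genes of fatty acid binding proteins. The annotated gene joins 2 blocks of 4 coding exons each, with a further exon of 36 bases between them (chr4:55125727-55125762). The coding parts of the upstream block and of the block of the curated RefSeq transcript have the same exon sizes, are separated by 15392 bases between their exons, and are 70.7% identical, with 117 of 399 coding bases differing. The second exon of each block, where 55 of 173 bases differ, is shown because reads can be told apart by these bases, which are in capitals:
upstream block, chr4:55118803-55118975: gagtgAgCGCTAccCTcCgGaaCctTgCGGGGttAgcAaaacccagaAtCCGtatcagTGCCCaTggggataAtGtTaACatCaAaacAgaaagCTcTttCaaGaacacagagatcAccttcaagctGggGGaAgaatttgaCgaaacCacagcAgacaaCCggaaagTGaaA
curated block, chr4:55138519-55138691: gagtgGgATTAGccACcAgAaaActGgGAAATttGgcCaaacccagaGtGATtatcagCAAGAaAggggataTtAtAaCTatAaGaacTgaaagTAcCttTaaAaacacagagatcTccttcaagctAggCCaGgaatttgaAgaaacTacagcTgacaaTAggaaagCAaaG
Whether the upstream block is a part of *PMP2* or a related gene was not tested, so the level of the whole gene may mix both.

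As annotated, *PMP2* was at 0.276 FPKM in the lowest, 0.360 FPKM at the median and 0.525 FPKM in the highest Tough library. In the Tender group it was listed at 0 in Tender 2 and Tender 3, and the other 4 Tender libraries ranged from 0.379 to 0.665 FPKM. The highest and the lowest values were thus both in the Tender group. The log2 difference was 0.13 (exact permutation p = 0.571), and without either Tender 2 or Tender 3 it was -0.0044. The curated block alone, per exon base, ranged from 0.364 to 0.638 FPKM in Tough libraries and from 0 to 0.556 FPKM in Tender libraries, with a log2 difference of 0.35 (exact permutation p = 0.134, adjusted p = 0.433 over the 8 comparisons of forms). The upstream block ranged from 0.0334 to 0.692 FPKM in Tough libraries and from 0 to 0.728 FPKM in Tender libraries, and exceeded the curated block in 4 of the 10 libraries with a transcript. In 8 libraries at least 1 transcript ran across both blocks.

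**Figure D3:**
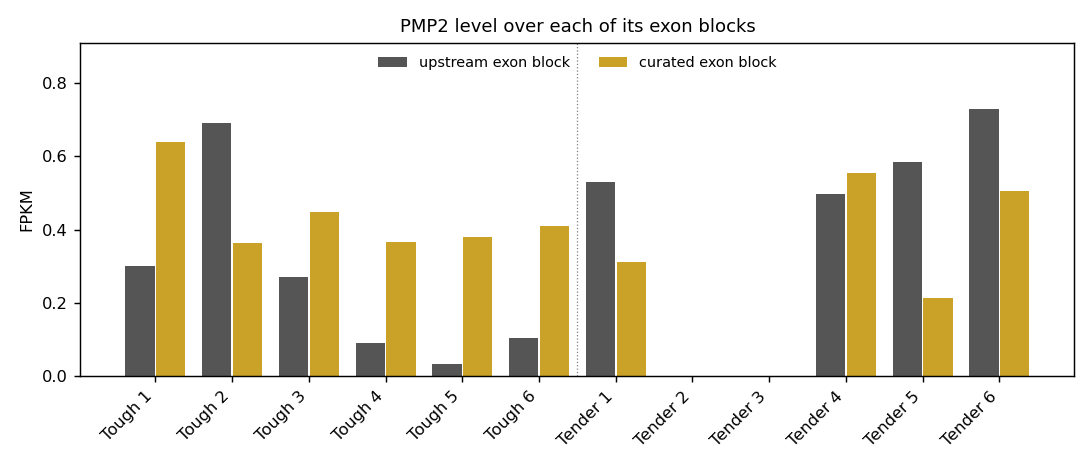
FPKM per exon base (y axis) over the upstream and the curated exon block of *PMP2* in each library, Tough 1 to 6 left of the dotted line and Tender 1 to 6 right of it. Tender 2 and Tender 3 have no transcript on either block, and Tough 1 has the highest value on the curated block, 0.638 FPKM.

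*PRX* lies on the minus strand at chr6:48675230-48691760, and most of its coding sequence is in its last exon. Its level was 0.459 FPKM in the lowest, 0.592 FPKM at the median and 0.669 FPKM in the highest Tough library, against 0.285, 0.560 and 0.644 FPKM in the Tender group. Tender 1 and Tender 5 were below every Tough library, and the other 4 Tender libraries lay within the Tough range. The log2 difference was 0.11 with a standard error of 0.12 (limma, adjusted p = 1.00; exact permutation p = 0.297). It turned to -0.10 when a transcript needed 90% of its bases in the gene and to -0.29 with a plain sum of transcript FPKM, and it was 0.045 without Tender 1. The gene was assembled in pieces: 41 transcripts over the 12 libraries covered from 34.6 to 93.9% of its exons. In 8 libraries a transcript began in an exon that extends past its annotated 5′ edge by more than 200 bases, and in 5 libraries a transcript reached the annotated exons further upstream. In mouse, retention of an intron gives a short periaxin beside the long one. In 7 libraries, 5 Tough and 2 Tender, a transcript ran by more than 100 bases into the last intron. Neither this split nor whether these transcripts are such a retained form was tested.

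*S100B* lies on an unplaced scaffold of the build (bases 189784 to 197338, plus strand). Its level was 1.07 FPKM in the lowest, 1.49 FPKM at the median and 1.92 FPKM in the highest Tough library, and 0.901, 1.18 and 2.00 FPKM at the same points of the Tender group. Within each group the libraries fell on either side of a gap: Tough 1, 4 and 5 and Tender 4 and 6 were at or above 1.75 FPKM, and the other 7 libraries were at or below 1.24 FPKM. The log2 difference was 0.09 with a standard error of 0.19 (limma, adjusted p = 1.00; exact permutation p = 0.630). Each library gave 1 transcript of 3 exons, all from the first annotated exon, so this is the member with the simplest assembly. Its own level before rescaling to the gene ranged from 1.72 to 3.12 FPKM in Tough libraries and from 1.45 to 3.22 FPKM in Tender libraries.

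*SOX10* (plus strand, chr5:9890439-9901746) was listed at 0.155 FPKM in Tough 5, at 0.129 FPKM in Tender 4, at 0.0890 FPKM in Tender 3 and at 0.0724 FPKM in Tender 1. It was listed at 0 in the other 5 Tough and 3 Tender libraries. The log2 difference was -0.06 (exact permutation p = 0.545). The 5 transcripts were fragments that covered between 24.1 and 61.8% of the gene's exons in a library. A listing at 0 need not mean that the RNA was absent. *ACTA1*, the skeletal muscle actin gene, whose RNA is among the most abundant of muscle, was also listed at 0 in all 12 libraries. The zeros of *SOX10*, a gene of low level here, may differ from that case, and their cause was not tested.

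A second list of 33 Schwann cell and myelin genes gave the setting for these members. Of the 33, 20 had a transcript in at least 1 library and 13 were listed at 0 throughout, among them *MAG* of myelin, *GJB1*, a gap junction gene of Schwann cells, and *CDH19*, a Schwann cell cadherin. Of all 30376 annotated genes, 13138 had a transcript in at least 1 library. Of 13 annotated muscle fibre genes, 4 were also listed at 0 throughout, so a 0 need not mean that the RNA was absent. Only 7 had a mean above 0.5 FPKM. Of these 7, 0 had a limma p of at most 0.05, and their median log2 difference was 0.12, beside 0.10 for the 4 members tested and -0.04 for all 9148 genes. *PLLP*, a membrane protein also found outside nerve, was at 3.52 ± 0.825 FPKM in Tough libraries and 3.08 FPKM in Tender libraries. *CNP*, an enzyme of non-compact myelin, was at 2.87 FPKM in Tough and 2.49 FPKM in Tender libraries on average. *MPP6* averaged 2.83 FPKM in Tough and 2.86 FPKM in Tender libraries, and *NCAM1*, an adhesion molecule that muscle fibres also make, 2.00 FPKM in Tough and 2.22 FPKM in Tender libraries. *CADM4*, *LGI4* and *SEMA3B* averaged 1.52, 1.36 and 1.39 FPKM in Tough libraries and 1.56, 1.21 and 1.08 FPKM in Tender libraries. *EGR2* was listed in 4 libraries and *ERBB3*, the neuregulin receptor of Schwann cells, in 1.

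**Figure D4:**
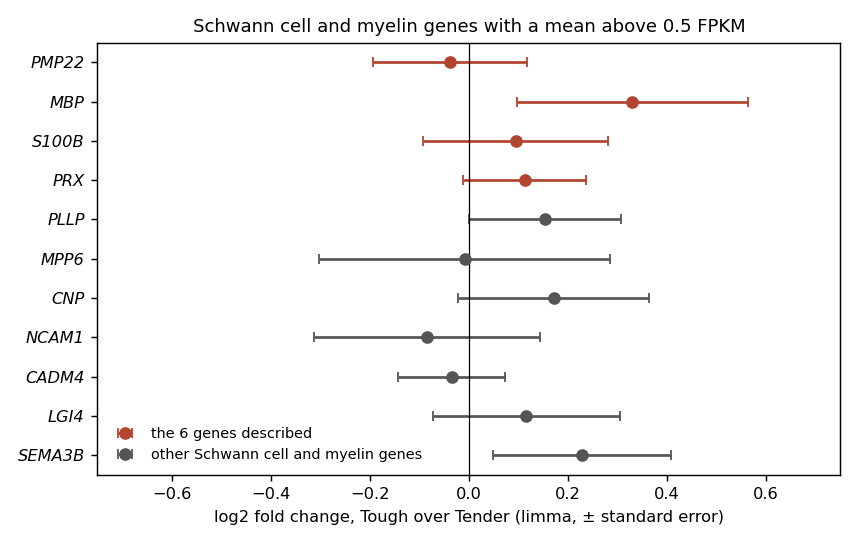
Log2 fold change, Tough over Tender (x axis), with its standard error from limma, for the 4 members and the 7 other Schwann cell and myelin genes with a mean above 0.5 FPKM. *MBP* has the largest value, 0.33, and every adjusted p is 1.00.

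Lists of marker genes of other cell types were counted beside these genes, whether or not a muscle sample holds those cells. Of 12 axon genes 11 are in the annotation under their symbol, and only *UCHL1* of these had a transcript, at 18.7 ± 12.7 FPKM in Tough and 15.5 ± 5.23 FPKM in Tender libraries (SD, n = 6 each), and all 6 oligodendrocyte genes were listed at 0. Among 6 melanocyte genes, cells that also use *SOX10*, only *MITF* was listed, at 1.37 FPKM in Tough and 1.495 FPKM in Tender libraries. Of 5 perineurium genes, 4 had a transcript and 2 were tested, with 0 at a p of at most 0.05. All 9 fibroblast genes tested had a positive log2 difference (median 0.22), and 8 of 9 endothelial genes a negative one (median -0.20), with 0 at a p of at most 0.05 in either list. The mean log2 level of the fibroblast genes ranged from 2.64 to 4.05 in Tough and from 2.63 to 3.57 in Tender libraries, and that of the endothelial genes from 1.35 to 2.23 in Tough and from 1.76 to 2.205 in Tender libraries. In the adipocyte list 1 of 8 genes tested passed that p, and in the macrophage list 1 of 7, both lower in Tough. Of 6 smooth muscle and pericyte, 2 lymphocyte and 9 muscle fibre genes tested, 0 passed it. The part of any of these cells in the levels of the members was not tested, nor was which cells gave the RNA of *UCHL1* and *MITF*.

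The members did not move as one across the 12 libraries. In a family of 45 relations, the 10 pairs of the 5 members listed in at least 10 libraries and each of these members with the mean log2 level of 7 cell type lists, 8 had a permutation p of at most 0.05 and 0 had an adjusted p of at most 0.05. *MBP* and *PRX* had the closest pairing (r = 0.75, rho = 0.76, permutation p = 0.00323, adjusted p = 0.0828), with r = 0.71 after removing the group means and 0.68 without Tender 1 and Tender 3. *PMP22* and *S100B* followed (r = 0.62, rho = 0.75, permutation p = 0.0336, adjusted p = 0.252), with r = 0.47 without Tough 1 and Tender 6. *PMP22* and *MBP* had r = -0.28 (permutation p = 0.367, adjusted p = 0.770). With the mean of the 7 other Schwann cell and myelin genes, *S100B* had r = 0.58 and rho = 0.55 (permutation p = 0.0473 for r, adjusted p = 0.266), *PMP22* r = 0.43 and rho = 0.51 (adjusted p = 0.596) and *MBP* r = 0.14 and rho = -0.03 (adjusted p = 0.860). With the fibroblast mean *S100B* had the highest r of the family (r = 0.78, rho = 0.67, adjusted p = 0.0828). With the endothelial mean *S100B* had r = 0.74 and rho = 0.74 (adjusted p = 0.108), and *PMP22* r = 0.72 and rho = 0.73 (adjusted p = 0.108). The lane of each library is not given in the sources used here, so these relations could not be repeated within lanes.

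The 2 forms of *PMP22* were also set against other levels one by one. Between the distal and the proximal form r was 0.04 (permutation p = 0.897). The distal form and the endothelial mean had r = 0.31 and rho = 0.40 (permutation p = 0.332, adjusted p = 0.398 over the 6 relations). The proximal form and the endothelial mean had r = 0.65 and rho = 0.77 (adjusted p = 0.0698 for r and 0.0137 for rho), with r = 0.62 without Tough 1 and Tender 3. With the fibroblast mean, r was 0.49 for the distal form and 0.43 for the proximal form (adjusted p = 0.203 and 0.237). The difference between the forms of a gene in these relations was not tested.

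Within a group, none of the 5 members listed in at least 10 libraries was related to shear force after adjustment over 10 relations, and *SOX10* was not tested. *MBP* came closest, with r = -0.60 in the 6 Tough animals (exact p = 0.213 over 720 pairings, adjusted p = 0.656). In the 6 Tender animals its rho was -0.89 and its r -0.72 (exact p = 0.0333 for rho and 0.0736 for r, adjusted p = 0.333 and 0.656). Without the 2 animals farthest from the median shear force r was -0.68 in Tough and -0.71 in Tender animals. *PMP22* had r = 0.53 in Tough animals and 0.65 in Tender animals (adjusted p = 0.656 for each), and both turned negative without the 2 farthest animals, at -0.55 and -0.34.

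The genes whose pattern over the 12 libraries was most like that of a member are given as a description, with no test. They were looked for among 7438 named genes that averaged 1 FPKM or more, after removing group means. For *PMP22* they were *MYL2* (r = 0.93), *MRPL30* (0.91) and *PYGL* (0.89). For *MBP* they were *GPD2* (r = 0.94), *NUP98* (0.92) and *SPTB* (0.92). For *PRX* they were *MED12* (r = 0.93), *UHRF1BP1* (0.92) and *THBS1* (0.88). For *S100B* they were *ITIH5* (r = 0.92), *NUDT7* (0.90) and *ROBO4* (0.90), and *ROBO4* is a gene of the endothelial list. For *PMP2* they were *PHACTR2* (r = 0.92), *TM9SF1* (0.91) and *NIPSNAP2* (0.90). No gene stood in the first 3 of 2 members.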

How the data were processed

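Per the labels, total RNA of 12 muscles gave paired-end libraries. The authors trimmed reads with Trim Galore, checked them with FastQC, mapped them to Sscrofa11.1 with TopHat2 2.1.0 and assembled each library with Cufflinks 2.2.1. The deposited files hold the assembled transcripts with their FPKM, as the authors computed it, and a score for each transcript, which was not used. Read counts, alignments and lanes were not analysed here, so depth enters only as Cufflinks' read coverage, whose ratio to FPKM ranged from 6.54 to 10.2 between libraries.

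Transcripts were set against the NCBI annotation of the same build, with 26 scaffolds matched through identical introns. A transcript was given to the gene on its strand that held at least 50% of its bases, and its level is the FPKM of these transcripts, each weighted by length, summed and divided by the bases of all exons of the gene. The test used limma 3.58.1 (R 4.3.3; lmFit, eBayes with trend) on log2(FPKM + 0.5) of genes that averaged over 0.5 FPKM, with the group as factor and Benjamini-Hochberg adjustment. The thresholds for a call were 0.05 for the unadjusted value, 0.10 after adjustment and 1.5 for the fold change. Members were also tested by an exact two-sided permutation test (924 arrangements, smallest possible p 0.00216). A fold change on this scale understates the change of low genes. Correlations used 100000 resamples, two-sided. Other steps ran in Python 3.11.15 (matplotlib 3.10.9, scipy 1.17.1, pandas 2.3.3, numpy 2.4.6). The p-values of the group tests set a difference against the spread between animals, and those of the correlations refer to shuffled pairings of animals.

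The members, the lists, the tests and the rule for named genes (the members, the 3 genes most like each, up to 8 genes of the Schwann cell list by level and up to 3 of each other list) were chosen with earlier results of these data known. *GJB1*, *MAG*, *CDH19*, *EGR2*, *ERBB3* and *ACTA1* were named after their values were seen. Some genes of the lists are not reported here. Alternatives changed the pseudocount, the filter, the scaling, the way gene FPKM is made, the fit, the use of scaffolds and the libraries.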

Additional observations from a re-analysis of the deposited data

Results flagged for a closer look

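Of 24 groups of 6 values checked (each member and the forms of *PMP22*, *MBP* and *PMP2*, in both groups), 3 held a library far from the other 5. *SOX10* in Tough 5 is one of them by construction, since the other 5 values of its group are 0, and the other 2 stand against about 1 in 20 groups that chance flags. *PMP22* was at 6.93 FPKM in Tough 1, against 4.05 to 4.92 FPKM in the other Tough libraries, and without Tough 1 the log2 difference, Tough over Tender, was -0.14 (exact permutation p = 0.297). The curated block of *PMP2* was at 0.638 FPKM in the same library, against 0.364 to 0.449 FPKM in the others. *SOX10* was at 0.155 FPKM in Tough 5 and listed at 0 in the other 5 Tough libraries.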

How the results depend on the processing

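No alternative brought a member past an exact permutation p of 0.05, and 0 genes were called under every setting. Log2 differences, Tough over Tender, kept their direction for *MBP*, *S100B* and *SOX10* under every alternative that gave them a value. Leaving out each library in turn gave 0.22 to 0.45 for *MBP*, 0.019 to 0.19 for *S100B*, 0.045 to 0.15 for *PRX*, -0.13 to -0.021 for *SOX10*, -0.0044 to 0.24 for *PMP2* and -0.14 to 0.023 for *PMP22*. *PMP22* also reversed with median-of-ratios scaling (0.0031) and quantile normalization (0.015), and *PRX* with a 90% share (-0.10) and a plain sum (-0.29). The cause was not tested. The count of genes at an unadjusted p of at most 0.05, 225, became 350 with no filter and 380 with a plain sum, where more genes were tested, and 152 to 405 with a library left out (381 without Tough 1, 386 without Tender 1, 405 without Tender 4). The animal numbers shared by the groups did not pair the libraries (correlations of same-numbered deviations from -0.23 to 0.016). With the number as a replicate block the count was 171 and the exact p was 0.25 for *MBP*. The alternatives that use part of a gene (*MBP* long form 0.30, *S100B* transcript 0.10, *PMP2* curated block 0.35) and the one without scaffolds (222 genes) were chosen after seeing the data. *PRX*, *PMP2* and *SOX10* gave no value with a minimum mean of 1 FPKM, *MBP* none with the 90% share, and *PMP2* and *SOX10* none with robust eBayes. Low coverage limits *SOX10*, *PMP2* and *PRX* most.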
